A study of Homo sapiens with 2 samples.

Results

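The G1 cyclins, the kinases they bind, the inhibitors of these kinases and the retinoblastoma protein were examined at the RNA level in Burkitt's lymphoma (BL) cells. The genes were taken by symbol from the count table, and all 10 had a row among its 37122 rows. They are the D-type cyclins CCND1 and CCND2, the kinases CDK4 and CDK6, the E-type cyclins CCNE1 and CCNE2, RB1, and the inhibitors CDKN1B, CDKN2A and CDKN2C. CDKN1B was included because its product, p27, was on the phosphorylation array of the study. RNA-seq compared Ramos, a line established from a human BL, with Ramos640, which was derived from it by exposure to rising rituximab concentrations with normal human serum. Ramos640 cells were kept resistant by treatment every 21 days with rituximab and 20% serum, the rituximab being 640 μg/mL in the paper and 640 mg/mL in the sample labels. Ramos cells are the parental line, for which the labels name no such treatment. RNA from 3 passages of each line was pooled before library preparation, so there was 1 library per line, Ramos640 was the only resistant line among the libraries, and no difference below has a replicate check or a p-value. In such bulk samples, fewer cells of a type and less RNA per cell cannot be told apart.

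Passage through G1 is driven by D-type cyclins bound to CDK4 or CDK6 and then by E-type cyclins bound to CDK2. These kinases phosphorylate the retinoblastoma protein and its relatives, which then release the E2F factors that transcribe genes for DNA replication. The INK4 inhibitors bind CDK4 and CDK6, whereas the CIP/KIP inhibitors, p27 among them, bind cyclin and CDK complexes and restrain above all those of CDK2. In germinal centre B cells and in BL, cyclin D3 is the D-type cyclin in use, and MYC, which is translocated in BL, activates CDK4 through E-boxes in its promoter.

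The libraries held 38030090 reads (Ramos) and 30871826 reads (Ramos640). Counts were scaled with median-of-ratios size factors of 1.14 and 0.876. A log2 fold change is that of Ramos640 over Ramos after 1 was added to each normalised read count, and its 95% interval is the exact binomial (Clopper-Pearson) interval of the reads, which covers counting error only. Among 18778 genes whose reads summed to at least 10 over both libraries, 14.6% were more than 1.5-fold higher and 17.3% more than 1.5-fold lower in Ramos640, or 31.9% in either direction. Intervals lay above 0 for 29.6% and below 0 for 31.6% of them. The log2 fold change also moved with GC content, with a running median of -0.32 at 37% GC and 0.19 at 58% GC over 10246 protein-coding genes, so the GC content of a gene is given where it bears on a value. All 10 B cell markers were read in both libraries, with 4348 to 74596 reads in Ramos and 1904 to 96811 in Ramos640. Past 1.5-fold, 2 of them were higher, IGHM and CD79B (log2 fold changes of 0.76 and 0.64), and 3 were lower. The lower ones were MS4A1, the gene of the rituximab target CD20 (9654 and 1904 reads, -1.96), MME (-0.92) and PAX5 (-0.80). The 6 T cell markers summed to 17 and 51 reads, with 3 at 0 in both libraries. Of these reads CD3E had 1 and 31 and CD4 had 11 and 19, both past 1.5-fold higher. The 6 monocyte markers summed to 18 and 17 reads, with 2 at 0 in both. Of the 6 epithelial and stromal markers, which summed to 1155 and 369 reads, COL1A1 (651 and 192) and COL1A2 (466 and 162) held nearly all. The part of any of these differences in the results was not tested.

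The sequences before the transcription start are shown for CDK4 and CDKN1B, which of the 10 genes stood highest in Ramos640 relative to Ramos, and for CDKN2C, which was lower. They are RefSeq windows on GRCh38.p14 and hold the 250 bases before an annotated start, 5′ to 3′ on the strand of the gene. Capitals mark the E-box CACGTG, the site class that MYC binds with MAX. CDK4 has 1 such window (chr12:57752311-57752560, minus strand), CDKN1B has 1 (chr12:12717118-12717367, plus strand), and of the 3 for CDKN2C the one at chr1:50969995-50970244 (plus strand) is given. For CDKN2C this is the window of the start furthest downstream, and which start these cells use was not tested.
CDK4: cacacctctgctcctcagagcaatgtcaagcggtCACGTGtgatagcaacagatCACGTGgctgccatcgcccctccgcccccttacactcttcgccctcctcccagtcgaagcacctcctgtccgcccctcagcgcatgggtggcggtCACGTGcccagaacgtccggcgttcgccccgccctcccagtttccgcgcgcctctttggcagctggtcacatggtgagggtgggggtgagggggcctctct
CDKN1B: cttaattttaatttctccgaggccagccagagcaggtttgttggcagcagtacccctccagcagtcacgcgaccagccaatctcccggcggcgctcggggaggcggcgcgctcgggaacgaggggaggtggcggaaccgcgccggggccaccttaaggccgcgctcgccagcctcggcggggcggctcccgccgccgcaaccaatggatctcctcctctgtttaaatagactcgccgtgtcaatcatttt
CDKN2C: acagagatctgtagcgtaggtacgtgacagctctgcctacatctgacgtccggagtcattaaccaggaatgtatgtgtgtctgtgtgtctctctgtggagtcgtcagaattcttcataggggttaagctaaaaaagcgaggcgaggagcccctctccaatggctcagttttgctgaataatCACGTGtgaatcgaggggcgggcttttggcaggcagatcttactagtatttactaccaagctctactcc
The CDK4 window held 3 E-boxes, which began 216, 196 and 101 bases before the start. Over all 35116 windows of this length, 6.34% held at least 1 E-box and 0.0797% held 3 or more. CDKN2C had 1 E-box in the window shown, 69 bases before the start, and 1 in another window, 220 bases before its start. The remaining CDKN2C window, at chr1:50968456-50968705, held none. No E-box lay in the windows of CDKN1B, CDKN2A, CDK6, CCNE1 or RB1, the RB1 window being that of a start inside the gene, not at its 5′ end. None of the 11 windows of the 7 genes with an entry held an E2F site (TTTCCCGC, TTTCGCGC, TTTGCCGC or TTTGGCGC, found in 2.79% of all windows) or the forkhead site GTAAACA (2.98%), both strands being searched. A match describes the letters only.

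Of the 10 genes, 1 was more than 1.5-fold higher in Ramos640 (CDKN1B) and 3 were more than 1.5-fold lower (CCNE2, RB1 and CDKN2C). Together 4 of 10 were past the limit, against 31.9% of all genes tested, with 14.6% higher and 17.3% lower. The counting interval lay above 0 for 4 genes, below 0 for 4 and across 0 for 2, against 29.6% above and 31.6% below 0 among all genes tested. The median log2 fold change was -0.44, against -0.015 over all genes tested, but the 8 genes with at least 100 reads had a median of -0.12. All 10 passed the minimum of 10 reads, CCND1 and CCND2 only narrowly.

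**Figure D1:**
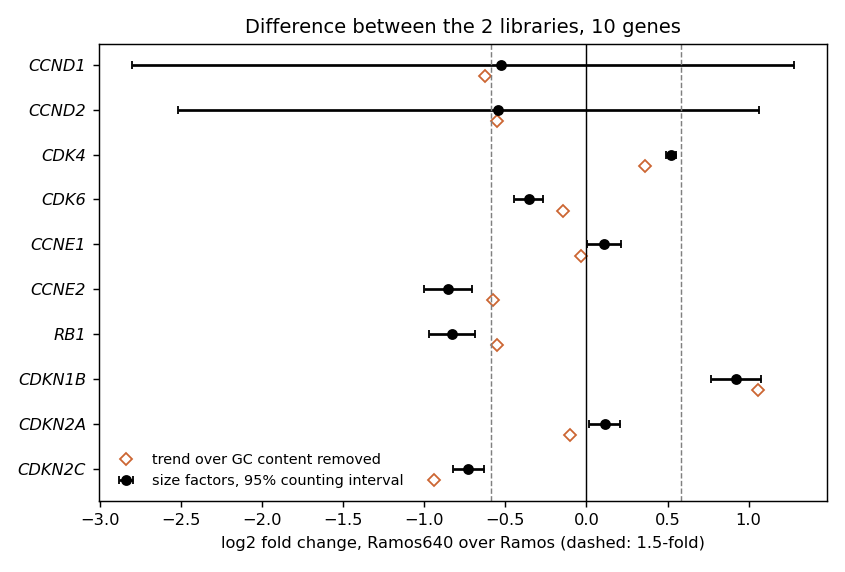
Log2 fold change of Ramos640 over Ramos (horizontal axis) for the 10 genes, as filled points with 95% counting intervals, 1 library per cell line. Open diamonds give the value with the GC trend taken out, and dashed lines mark 1.5-fold. CDKN1B lies to the right of the upper dashed line at 0.92, and CCNE2, RB1 and CDKN2C lie to the left of the lower one, where RB1 and CCNE2 cross back over it once the GC trend is removed.

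CDKN1B, which encodes p27, lies on chromosome 12 of GRCh37 from 12838432 to 12875303 on the plus strand. It was read 581 times in Ramos against 846 times in Ramos640, or 509 and 965 after scaling. The log2 fold change was 0.92 (interval from 0.77 to 1.08), a level 1.89-fold higher in the resistant line and above that of 92.4% of all genes tested. With the GC trend removed it was 1.06, the GC content of its longest transcript being 42.7%. GPR19, which overlaps it on the opposite strand, had 48 and 13 reads and a log2 fold change of -1.44, so its reads were fewer in the library in which CDKN1B had more. On either side, CREBL2 (259 and 111 reads) and APOLD1 (63 and 47 reads) had log2 fold changes of -0.84 and -0.041.

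The other CIP/KIP genes were hardly read. CDKN1A, which encodes p21, had 21 and 25 reads (0.61, interval from -0.26 to 1.54), so no difference was detectable at this depth. CDKN1C, which encodes p57, had 7 reads and 1 read, whose ratio has a wide interval, from -7.92 to 0.53 on the log2 scale. CDKN1B therefore held 95.4% of the CIP/KIP reads in Ramos (exact interval from 93.4% to 96.9%) and 97.0% in Ramos640 (95.7% to 98.0%).

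The INK4 genes moved apart. CDKN2C, which encodes p18, lies on chromosome 1 from 51426417 to 51440306 on the plus strand and was read 2794 times in Ramos against 1296 times in Ramos640. Its log2 fold change was -0.73 (interval from -0.82 to -0.63). With a GC content of 58.1% it lay against the GC trend, and the value without that trend was -0.94. FAF1, which ends 478 bases before it, was read 4434 and 3893 times and had a log2 fold change of 0.19, so it did not share the lower level of CDKN2C. CDKN2A, on chromosome 9 from 21967751 to 21995300 on the minus strand, had 1908 and 1583 reads and a log2 fold change of 0.11 (interval from 0.015 to 0.21), which was -0.099 without the GC trend. The locus encodes p16 and, from another first exon in another reading frame, ARF, and reads counted per gene do not separate them. CDKN2B, its neighbour with the product p15, had 35 and 10 reads (-1.35, interval from -2.61 to -0.38). MTAP on the other side had 2825 and 2417 reads. The antisense gene CDKN2B-AS1, which overlaps CDKN2A, had 176 and 114 reads, and without a stated strand setting its reads and those of CDKN2A cannot be told apart where they overlap. CDKN2D, with the product p19, had 839 and 567 reads (-0.18, interval from -0.34 to -0.029), and was at -0.41 without the GC trend. Among INK4 reads, the share of CDKN2C was 50.1% in Ramos (48.8% to 51.4%) and 37.5% in Ramos640 (35.9% to 39.1%), and that of CDKN2A was 34.2% (33.0% to 35.5%) and 45.8% (44.1% to 47.5%). These shares do not depend on how the libraries are scaled to each other, and their intervals do not overlap.

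CDK4, the main G1 kinase gene of these cells, lies on chromosome 12 from 58141510 to 58149796 on the minus strand. Its 16827 reads in Ramos and 18571 reads in Ramos640 became 14745 and 21193 after scaling. The log2 fold change was 0.52 (interval from 0.49 to 0.55), or 1.44-fold, just short of the 1.5-fold limit, and 0.36 without the GC trend (GC content 52.0%). TSPAN31 overlaps its end on the opposite strand and had only 482 and 349 reads. The flanking genes AGAP2 (log2 fold change 0.0035) and CYP27B1 (-0.15) had intervals that included 0. CDK6, its paralogue on chromosome 7 from 92234235 to 92465887 on the minus strand, went the other way. It had 2684 and 1612 reads, a log2 fold change of -0.35 (interval from -0.44 to -0.26), or 1.28-fold lower, and -0.14 without the GC trend (GC content 39.7%). CDK4 outnumbered CDK6 by 6.27 reads to 1 in Ramos and 11.5 to 1 in Ramos640. Per length of exon, CDK4 was 96.1% of the pair in Ramos (96.0% to 96.3%) and 97.9% in Ramos640 (97.7% to 98.0%).

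CCND1, which encodes cyclin D1, lies on chromosome 11 from 69455924 to 69469242 on the plus strand and was read 8 times in Ramos against 4 times in Ramos640. CCND2, which encodes cyclin D2, lies on chromosome 12 from 4378937 to 4414519 on the plus strand and had 10 and 5 reads. Their log2 fold changes of -0.53 (interval from -2.80 to 1.28) and -0.54 (interval from -2.52 to 1.06) are within counting error, and a difference was not detectable at this depth. The reads of CCND1 may also include some of ORAOV1, which overlaps it on the opposite strand with 477 and 397 reads. Nearly all D-type cyclin reads came from the gene of cyclin D3. CCND3 had 12008 and 7415 reads (-0.31, interval from -0.36 to -0.27) and made up 99.9% of the D-type cyclin reads in either library. The D-type cyclin that these cells transcribe was thus 1.24-fold lower in the library in which CDK4 was higher. Without the GC trend the log2 fold change of CCND3 was -0.50 (GC content 56.2%).

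CCNE1 and CCNE2, the E-type cyclins that activate CDK2, also separated. CCNE1, on chromosome 19 from 30302898 to 30315219 on the plus strand, was read 1620 times in Ramos against 1341 times in Ramos640. Its log2 fold change of 0.11 (interval from 0.0029 to 0.21) became -0.033 without the GC trend (GC content 51.7%). CCNE2, on chromosome 8 from 95891998 to 95908906 on the minus strand, had 1298 and 552 reads and a log2 fold change of -0.85 (interval from -0.999 to -0.71). It was 1.80-fold lower in Ramos640, the largest difference downward among the 10 genes. Its GC content of 36.9% is low, and without the GC trend the value was -0.57, just inside 1.5-fold. INTS8 and NDUFAF6, which overlap its ends on the opposite strand, were lower by less (log2 fold changes of -0.49 and -0.29). Per length of exon, CCNE1 made up 69.0% of the E-type cyclin reads in Ramos (67.4% to 70.6%) and 81.3% in Ramos640 (79.7% to 82.8%), and these intervals do not overlap. They do not cover the GC trend, without which CCNE1 and CCNE2 were at -0.033 and -0.57. CDK2, the partner of both, had 3933 and 2523 reads (-0.26, interval from -0.33 to -0.19), and was at -0.41 without the GC trend.

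RB1, the retinoblastoma gene, lies on chromosome 13 from 48877880 to 49173572 on the plus strand. It was read 1366 times in Ramos against 591 times in Ramos640, a log2 fold change of -0.83 (interval from -0.97 to -0.69), or 1.77-fold lower. Its GC content was 37.1% and the value without the GC trend was -0.55, also just inside 1.5-fold. The gene model overlaps RCBTB2 (812 and 300 reads, -1.05) and LPAR6 (9 and 2 reads) on the opposite strand. The other pocket proteins bind E2F4 and E2F5. RBL2, which encodes p130, had 2727 and 1365 reads (-0.62, interval from -0.71 to -0.52), and RBL1, which encodes p107, had 1762 and 1117 reads (-0.28, interval from -0.39 to -0.17). Without the GC trend these values were -0.50 for RBL2, inside 1.5-fold, and -0.070 for RBL1. RB1 held 23.3% of the pocket protein reads in Ramos (22.3% to 24.4%) and 19.2% in Ramos640 (17.9% to 20.7%).

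**Figure D2:**
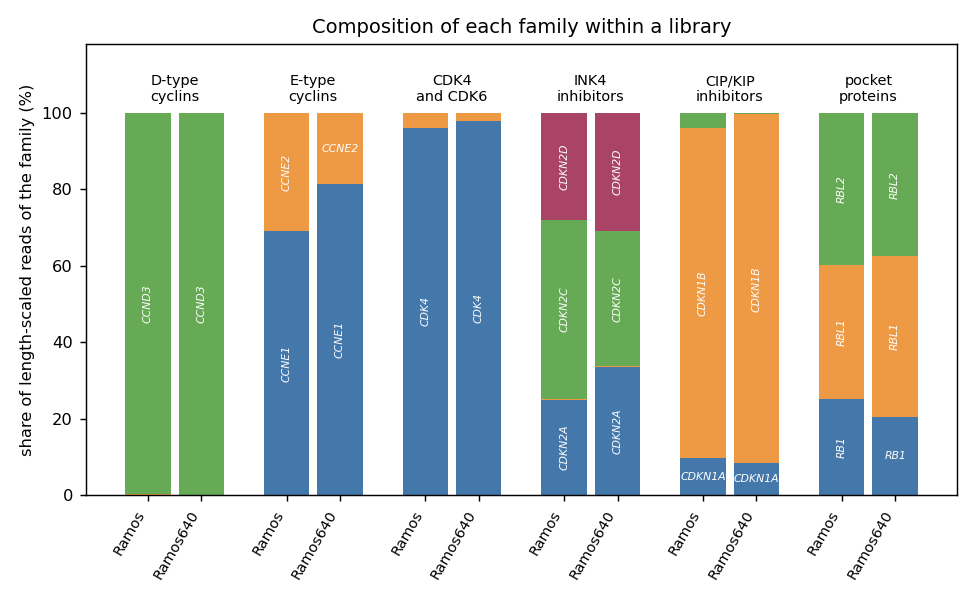
Stacked bars give the share of each paralogue (vertical axis, %) in the length-scaled reads of its family, for 6 families in the Ramos and Ramos640 libraries, with no error bars. CCND3 fills the D-type bars, CCNE1 grows from 69.0% to 81.3% of the E-type cyclins, and CDKN2C shrinks from 46.7% to 35.3% of the INK4 inhibitors.

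Levels of different genes can be set side by side only per length, here as RPKM, which divides reads by the library size and by the length of all annotated exons. In Ramos the order was CDK4 (143 RPKM), CDKN2C (24.3), CCNE1 (17.3), CDKN2A (12.9), CCNE2 (7.76), CDK6 (5.77), RB1 (5.58), CDKN1B (1.65), CCND1 (0.044) and CCND2 (0.033). CDK6 and RB1, and CCND1 and CCND2, did not differ beyond counting error. In Ramos640 the order was CDK4 (194 RPKM), CCNE1 (17.7), CDKN2C (13.9), CDKN2A (13.2), CDK6 (4.27), CCNE2 (4.07), RB1 (2.98), CDKN1B (2.96), CCND1 (0.027) and CCND2 (0.020). There the neighbours CDKN2C and CDKN2A, CDK6 and CCNE2, RB1 and CDKN1B, and CCND1 and CCND2 were within counting error of each other. Over all annotated exons, CDKN1B was thus within counting error of RB1 in Ramos640, and CDKN2C within counting error of CDKN2A. Neither held with the longest transcript as the length. CDKN1B (4335 bases instead of 9255) was then at 3.52 RPKM in Ramos and 6.32 in Ramos640, against 7.53 and 4.02 for RB1. CDKN2A (1052 bases instead of 3885) was then at 47.7 and 48.7 RPKM, second in both libraries, against 25.3 and 14.5 for CDKN2C.

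**Figure D3:**
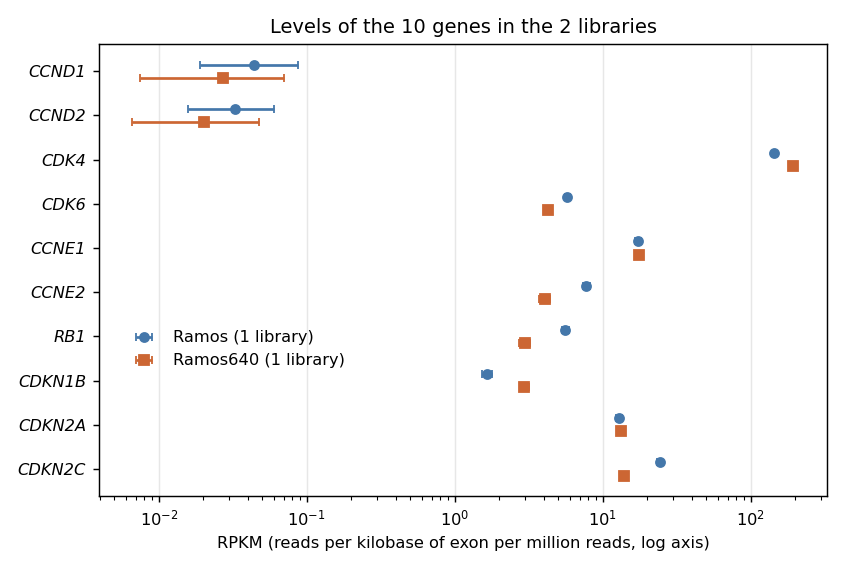
RPKM (horizontal axis, logarithmic) of the 10 genes in Ramos (circles) and Ramos640 (squares), 1 library each, with exact 95% Poisson intervals that are smaller than most symbols. CDK4 stands far to the right at 143 and 194 RPKM, CCND1 and CCND2 lie below 0.1 RPKM with overlapping intervals, and CDKN1B and RB1 are at 2.96 and 2.98 RPKM in Ramos640 by these exon lengths.

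The genes around each member were compared with it, and genes that overlap the member were left out. For RB1, 9 of the 10 nearest protein-coding genes with at least 10 reads (5 on each side) were below 0, against 51.2% of all genes tested, and 5 of them were past 1.5-fold lower. Their median log2 fold change was -0.59. Without the GC trend 7 of the 10 were below 0, 3 were past 1.5-fold lower and the median was -0.38. ITM2B, the nearest gene before RB1, had 1476 and 575 reads (-0.98), and FNDC3A, the nearest after it, had 3929 and 2091 (-0.53). All 10 neighbours of CCNE2 (median -0.40) and all 10 of CDK6 (median -0.34) were also below 0. Not all of them were so beyond counting error. The intervals of ESRP1 near CCNE2 (12 and 6 reads) and HEPACAM2 near CDK6 (8 and 3 reads), among others, included 0. Without the GC trend 7 of 10 were below 0 around either gene, with medians of -0.17 and -0.15. CDK6 itself, at -0.35, did not stand apart from its neighbourhood. The median over the neighbours was -0.014 for CDKN1B, -0.10 for CDKN2C, -0.11 for CDK4, -0.020 for CCNE1 and 0.047 for CDKN2A. Without the GC trend these medians were -0.034, 0.039, -0.29, 0.084 and 0.22, so those around CDK4 and CDKN2A lay further from 0 than the ones around CCNE2 and CDK6. The median was 0.12 around CCND1 and -0.21 around CCND2, and -0.11 and -0.094 without the GC trend. The stretch that the 10 genes span differed widely between members. It reached 6.09 Mb before and 2.85 Mb after CCNE1, 1.63 and 5.58 Mb around CDKN2A, and 4.29 and 1.08 Mb around CDKN2C. Around CDK4 it reached only 0.143 and 0.063 Mb, so the medians do not describe neighbourhoods of like size. Near neighbours can share chromatin and GC content and are not independent of each other, and whether DNA copies differ was not tested.

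**Figure D4:**
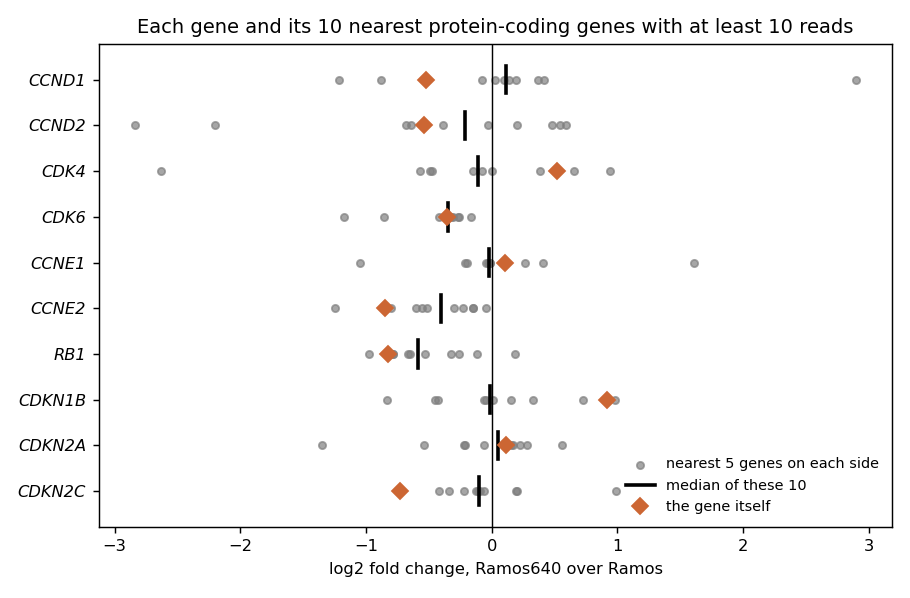
Log2 fold change of Ramos640 over Ramos (horizontal axis) for each of the 10 genes (diamonds), for the 5 nearest protein-coding genes with at least 10 reads on each side of it (grey points) and for their median (black bars). Genes that overlap the gene itself are left out. The grey points of CDK6, CCNE2 and all but 1 of RB1 lie left of 0, while CDKN1B and CDKN2C stand away from their medians of -0.014 and -0.10.

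The other genes of G1/S control were grouped in 10 lists with 86 distinct genes, of which 84 had at least 10 reads. Of these 84, 4 were more than 1.5-fold higher and 7 more than 1.5-fold lower, against 14.6% and 17.3% of all genes tested, and their median log2 fold change was -0.18. Intervals lay above 0 for 21 and below 0 for 48 of them, against 29.6% and 31.6% of all genes tested. An interval narrows as reads rise, so that of a well-read gene can exclude 0 at a small difference. A gene with few reads can pass 1.5-fold by counting error, and all genes tested include those with only 10 reads. The part of read depth in these shares was not tested.

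Among 12 pocket protein and E2F genes, 1 was past 1.5-fold higher and 3 were past 1.5-fold lower (median -0.26). E2F4, a repressor that works with p107 and p130, had 4518 and 5883 reads (0.76, interval from 0.71 to 0.82). E2F5, its closest relative, had 5997 and 2607 reads (-0.82, interval from -0.89 to -0.75). TFDP2, a DNA-binding partner of the E2F factors, had 3047 and 1235 reads (-0.92, interval from -1.02 to -0.83), and RBL2 was the remaining gene on the lower side. The activator E2F1 had 4558 and 4404 reads (0.33, interval from 0.27 to 0.39), and its value was 0.090 without the GC trend (GC content 61.6%). E2F4 has a GC content of 59.3% and E2F5 of 38.3%, and without the GC trend their values were 0.54 and -0.56, both inside 1.5-fold. RBL2 was inside it too, so that TFDP2, at -0.93, was the 1 gene of this list left past the limit. None of the 6 MuvB genes was past 1.5-fold (median -0.13).

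Of the 14 genes that control p27 or its turnover, 1 was past 1.5-fold higher and 2 were past 1.5-fold lower (median -0.13). The forkhead factors, which can activate CDKN1B, were divided. FOXO3 had 164 and 271 reads (1.10, interval from 0.82 to 1.39), whereas FOXO1, far more abundant in Ramos, had 1917 and 811 reads (-0.86, interval from -0.98 to -0.74), and FOXO4 had 673 and 313 (-0.72, interval from -0.92 to -0.53). SKP2, the F-box protein that marks phosphorylated p27 for degradation, had 1598 and 1006 reads (-0.29, interval from -0.40 to -0.17). Its cofactor CKS1B had 3067 and 1575 reads (-0.58, interval from -0.67 to -0.49), and with TMM factors or total counts it was past the limit, which made 3 lower genes in this list. The other subunits of the SKP2 ligase differed among themselves, with SKP1 at -0.43 (interval from -0.50 to -0.36) and with intervals that included 0 for CUL1 (-0.0022) and RBX1 (0.033). The kinase gene UHMK1 was at -0.26 and the ligase subunits RNF123 and UBAC1 at 0.34 and 0.47. Without the GC trend the values were -0.13 for SKP2, -0.49 for CKS1B, -0.25 for SKP1, 0.017 for UHMK1, 0.11 for RNF123 and 0.25 for UBAC1, so that of UHMK1 changed sign. FOXO3 (1.03), FOXO1 (-0.87) and FOXO4 (-0.95) stayed past the limit.

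No gene of cyclin D and E turnover was past 1.5-fold (6 genes, median 0.0040), and FBXW7, which targets cyclin E, was at 0.17. The same held for the 8 genes of CDK activation and its brakes (median -0.019), with CDC25A at 0.020. Of 5 Polycomb genes, CBX8 was past 1.5-fold higher with 91 and 129 reads (0.88), and BMI1 was at -0.16. The other CIP/KIP and INK4 inhibitors had CDKN1A on the higher and CDKN2B on the lower side among 3 genes with at least 10 reads, and CDKN1A was no longer past the limit with total counts, a pseudocount of 10 or without the GC trend. With a minimum of 100 reads neither CDKN1A nor CDKN2B was tested. Among the other G1/S cyclins and CDKs, CCND3, CDK2 and CCNA2 (8002 and 4768 reads, -0.37) were all below 0 and within 1.5-fold. CCNA1 had no read in either library, which allows up to 3 reads, or 0.0789 CPM in Ramos and 0.0972 CPM in Ramos640.

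Of 20 E2F target genes, none was past 1.5-fold higher and 1 was just past 1.5-fold lower, TK1 with 3485 and 1781 reads (-0.59, interval from -0.67 to -0.50). Their median was -0.20, from -0.59 to 0.27, and -0.21 without the GC trend. TK1, with a GC content of 62.8%, was at -0.84 without that trend. None of 10 G2 and M phase genes was past 1.5-fold (median -0.32, from -0.49 to 0.034, and -0.22 without the GC trend). The intervals of 8 of these 10 genes lay below 0, against 31.6% of all genes tested, and those of 2 included 0. The largest differences were those of TOP2A and CDK1, both at -0.49. MKI67, the common proliferation marker, was 1 of the 2 whose interval included 0. It had 28322 and 21914 reads (0.011, interval from -0.014 to 0.037), and was at -0.051 without the GC trend.

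**Figure D5:**
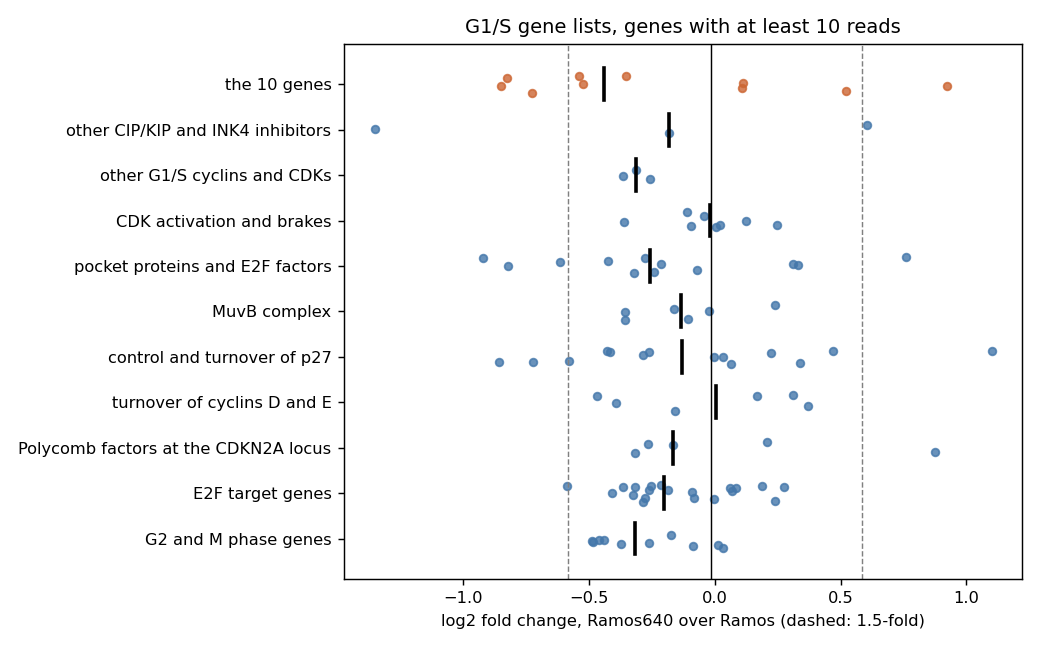
Log2 fold change of Ramos640 over Ramos (horizontal axis) for the 10 genes (orange) and for the genes of each G1/S list with at least 10 reads (blue), with black bars at the medians, a thin line at the median of all genes tested (-0.015) and dashed lines at 1.5-fold. FOXO3 at 1.10 and CDKN2B at -1.35 are the outermost points of the lists, and the E2F targets lie between -0.59 and 0.27.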

How the data were processed

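RNA was pooled from 3 passages per cell line and sequenced on the Ion Proton, 1 library each. After adaptor removal, the authors mapped reads with MapSplice on GRCh37, and the deposited values are unnormalized read counts per gene. The counting program, its annotation and its use of strand are not given in the sources used here. Of the 37122 rows, 28 carry a number in place of a symbol and were kept.

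Size factors were the median of ratios, as in the DEseq algorithm that the study used. With 1 library per line no dispersion can be estimated, so edgeR's quasi-likelihood test and DESeq2 were not run and no p-value is given. A gene counted as past the limit above 1.5-fold, the fold the study used. Exon lengths, positions and GC content of the longest transcript came from GENCODE v44lift37 (GRCh37). Symbols matched 26511 rows and older symbols 2282 more, which gave GC content for 84.1% of genes tested. The GC trend was a running median with a window of 501 genes, fitted on protein-coding genes of 100 reads or more, with the overall median kept. Overlapping genes and neighbours came from the same annotation. Promoter windows came from RefSeq on GRCh38.p14. TMM factors were from edgeR 4.0.16, and all else was computed in Python 3.11.15 with scipy 1.17.1. The steps were tested on simulated data.

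The members and lists were chosen with earlier results of these data known. The named genes were the 10 members, all listed genes past 1.5-fold, some fixed partners whatever their value, and overlapping or adjacent genes. Other named genes, SKP1, CUL1, RBX1, UHMK1, RNF123, UBAC1, FBXW7, CDC25A, BMI1 and MKI67 among them, were chosen after their values were seen.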

Additional observations from a re-analysis of the deposited data

How the results depend on the processing

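With 1 library per line, no replicate could be left out, and no value separates the lines from culture variation. No paired analysis was possible because each group has 1 sample. CDKN1B stayed the 1 gene past 1.5-fold higher under all 7 alternatives to scaling, pseudocount, read minimum and GC content. The genes past 1.5-fold lower went from 3 to 5 with total counts and to 5 with a pseudocount of 0.1, since CCND1 and CCND2, with 12 and 15 reads in all, crossed the limit. Without the GC trend 2 were lower, CDKN2C and CCND1, since CCNE2 and RB1 came inside it, and CCNE1 and CDKN2A changed sign (-0.033 and -0.099). In the G1/S lists the higher genes went from 4 to 2 without the GC trend, and the median of the Polycomb list from -0.16 to 0.039, an alternative chosen after the data were examined, as were the 10 nearest genes and their counts without the trend. TMM factors and total counts moved the median of all genes tested by -0.0097 and -0.080. With the longest transcript as length, family shares in Ramos and Ramos640 became 97.5% and 98.6% for CDK4 (from 96.1% and 97.9%), 28.5% and 19.0% for CDKN2C (from 46.7% and 35.3%), and 91.2% and 94.4% for CDKN1B (from 86.5% and 91.3%), with CCND3 at 99.93% in Ramos. The cause was not tested, but the alternative changes only the lengths. CCNE1 shares stayed within their counting error.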

Other observations

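Ratios of reads between related genes within a library do not depend on the scaling, and the pairs here were chosen after their values were seen. A trend over GC content does not cancel in the ratio of genes that differ in GC content. CDKN1B had 0.148 reads for each read of CDK2 in Ramos and 0.335 in Ramos640, a 2.27-fold change of the ratio. Against CDKN2C, the change was 3.14-fold. CDK4 had 6.02 reads for each read of its inhibitor gene CDKN2C in Ramos and 14.3 in Ramos640. E2F4 had 0.753 reads for each read of E2F5 in Ramos and 2.26 in Ramos640. Without the GC trend the log2 fold changes of E2F4 and E2F5 were 0.54 and -0.56, against 0.76 and -0.82 with it. FOXO3 had 0.0856 and 0.334 reads for each read of FOXO1, the largest change of ratio among the pairs computed at 3.91-fold. In contrast, CDKN2A and MTAP kept nearly the same ratio of reads (0.675 and 0.655), as did RB1 and ITM2B (0.925 and 1.03). Without the GC trend the log2 fold changes of CDKN2A and MTAP were -0.099 and 0.42, so this pair then moved apart. Those of RB1 and ITM2B were -0.55 and -0.74.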
